A study of Mus musculus with 6 samples.

Results

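Serpina3n and 8 other genes for protease inhibitors and their relatives were examined in ribosome-bound mRNA of mice with experimental stroke. The 9 genes are Serpina3n, Serpina3m, Serpina3g, Serpina3i, Serpina3f, Serping1, Serpinh1, Serpine2 and A2m. They were found by symbol among the array's 41345 transcript clusters, each a set of probes for a transcribed locus, and 8 clusters carried them, because Serpina3f and Serpina3g share 1 cluster. The genes were chosen by symbol once their stroke and control signal on these same arrays was known. That signal is therefore given as a description. Calls of the fit over all clusters are counted for the members only beside their share over all clusters, and support nothing.

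The 6 arrays (Affymetrix MoGene-2_0-st) came from CD11brGFP transgenic mice aged 2 to 3 months. In both groups the CD11b promoter drove RPL10a, a protein of the large ribosomal subunit, fused to Flag and EGFP. This promoter works in myeloid cells such as microglia, monocytes and neutrophils. The control group was 3 arrays from sham-operated mice, and the stroke group was 3 arrays from mice studied at 24 h of tMCAO. In this operation, transient occlusion of the middle cerebral artery, an artery of the brain is blocked and then reopened. The hybridised messenger RNA had been pulled down together with the Flag and EGFP ribosomes (TRAP, a translating ribosome affinity purification). Per the labels each group had 6 mice and 3 biological replicates, the sex of the mice is given both as male only and as mixed, and neither the tissue nor the distribution of mice over arrays is named. The p-values below therefore measure the spread between these arrays.

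Serpins are proteins that trap a protease: the protease cuts an exposed loop of the serpin and is left bound to it and inactive. Alpha-2-macroglobulin instead encloses proteases of several classes in a cage, and the complex is then taken up through the receptor LRP1. In the brain, Serpina3n is known as a gene induced in reactive astrocytes and in oligodendrocytes under inflammation, and Serping1 encodes the C1 inhibitor, which restrains the first proteases of the complement cascade. Not every member is an inhibitor, since Serpinh1 (HSP47) has a serpin fold but serves as a collagen chaperone in the endoplasmic reticulum.

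Array medians lay between 5.23 and 5.35 on the log2 scale. In each group the array numbered 2 lay far from the rest on the first principal component, at 50.87 and 37.68 against -29.79 to -14.34 for the other 4 arrays, and this component held 46.0% of the variance. Each fit was therefore also run without those arrays. Rpl10a, whose protein carries the tag, was at 10.34 ± 0.15 in control and 10.42 ± 0.06 in stroke (log2 signal, mean ± SD, n = 3 arrays). Itgam, the gene of CD11b, was at 6.17 ± 0.40 and 7.01 ± 0.07. Mean signal over 17 homeostatic microglia markers ran from 6.81 to 7.60 over the 6 arrays, above the array medians. Markers of cells that the CD11b promoter does not target also had such signal. The mean over 12 neuron markers ran from 11.09 to 11.24, and over 11 oligodendrocyte markers from 10.18 to 10.55. A difference in this RNA can therefore come from myeloid or other cells, and in such bulk RNA a change in the number of cells of a type and a change in RNA per cell cannot be told apart.

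Serpina3n (chr12:104406646-104414334 on GRCm38, plus strand) encodes a secreted inhibitor of serine proteases, granzyme B and leukocyte elastase among them. Its log2 signal was 8.02, 8.89 and 8.01 in control arrays 1 to 3 and 11.33, 12.07 and 11.40 in stroke arrays 1 to 3. The groups did not overlap, and the lowest stroke array lay 2.43 above the highest control array. Array 2 was the highest of its group on both sides. The means were 8.31 ± 0.51 and 11.60 ± 0.41, a difference of 3.29 (SE 0.29), or 9.77-fold. Set against the control array of the same number, the 3 stroke arrays were higher by 3.31, 3.18 and 3.38, an SD of 0.11 that is smaller than the SD within either group. Without both arrays numbered 2 the difference was 3.35.

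**Figure D1:**
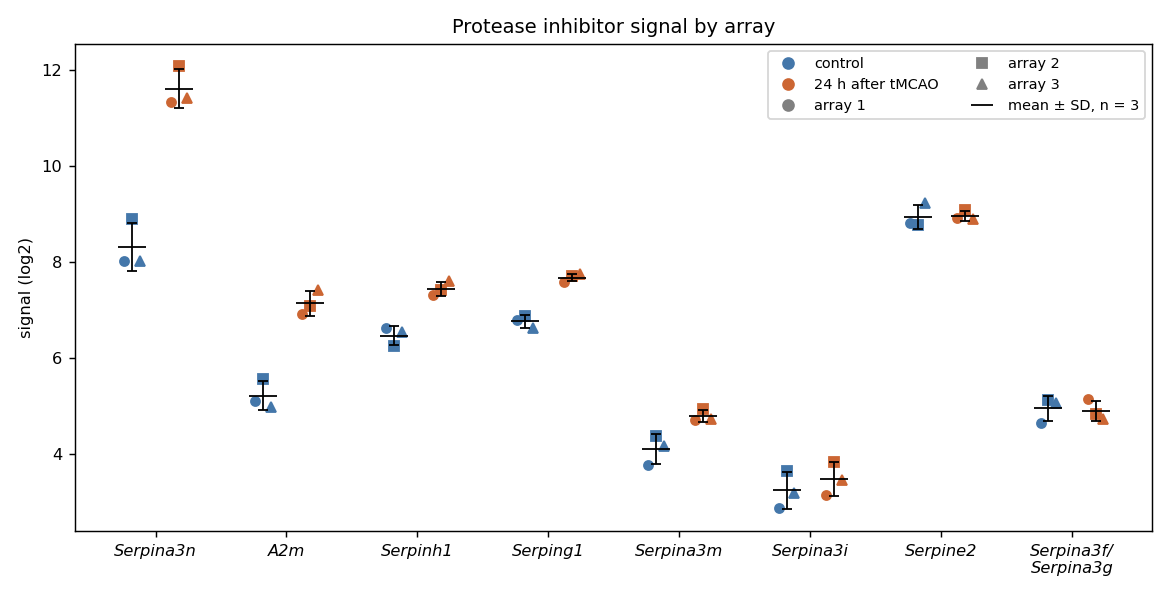
Signal (log2) of the 8 member clusters on each array, control in blue and stroke in orange, with the array number as the symbol shape and bars for mean ± SD (n = 3). Serpina3n, A2m, Serpinh1, Serping1 and Serpina3m show separate groups, and the other 3 clusters overlap.

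Serpina3n is the last of 11 Serpina3 genes that lie within 301.6 kb of chromosome 12. The nearest, Serpina3m (chr12:104387157-104394259), starts at -19.5 kb from it. Its log2 signal was 3.76, 4.37 and 4.17 in control and 4.71, 4.93 and 4.73 in stroke, so the groups were separate by 0.34. The means were 4.10 ± 0.32 and 4.79 ± 0.12, a difference of 0.69 (SE 0.18). All 6 values lay below the median of their array, and without detection calls such signal is not shown to be above background.

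Serpina3i (chr12:104263045-104269509) was at 2.87, 3.65 and 3.19 in control and 3.14, 3.84 and 3.46 in stroke. These groups overlapped, with a difference of 0.24 (SE 0.25). As for Serpina3n, array 2 was the highest of its group on both sides for Serpina3i and Serpina3m. Serpina3f (chr12:104214544-104221129) and Serpina3g (chr12:104236147-104241939), a cytosolic and nuclear inhibitor of cathepsins in activated leukocytes also called Spi2A, could not be told apart on this array. Their shared cluster was at 4.65, 5.13 and 5.06 in control and 5.14, 4.83 and 4.73 in stroke, with overlapping groups and a difference of -0.05 (SE 0.18). That sign rests on single arrays, since the difference was 0.08 without both arrays numbered 2. The authors' deposited table, which uses another kind of average, lists this cluster at 5.09 and 4.83 with a fold change of -1.2.

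The signal of Serpina3n can be set beside that of the whole locus. The 10 Serpina3 genes other than Serpina3n are carried by 9 clusters, whose differences ran from -0.24 (Serpina3b) to 0.69 (Serpina3m). In 8 of these 9 clusters the groups overlapped, as they did in 28346 of the 31873 clusters with a symbol. Signal lay below the array median on all 6 arrays in 8 of the 9, and on 5 arrays for Serpina3h, a transcribed pseudogene. The sequences of the array's probes were not used here, so binding of Serpina3n transcripts by the probes of its paralogues, and the reverse, was not tested.

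**Figure D2:**
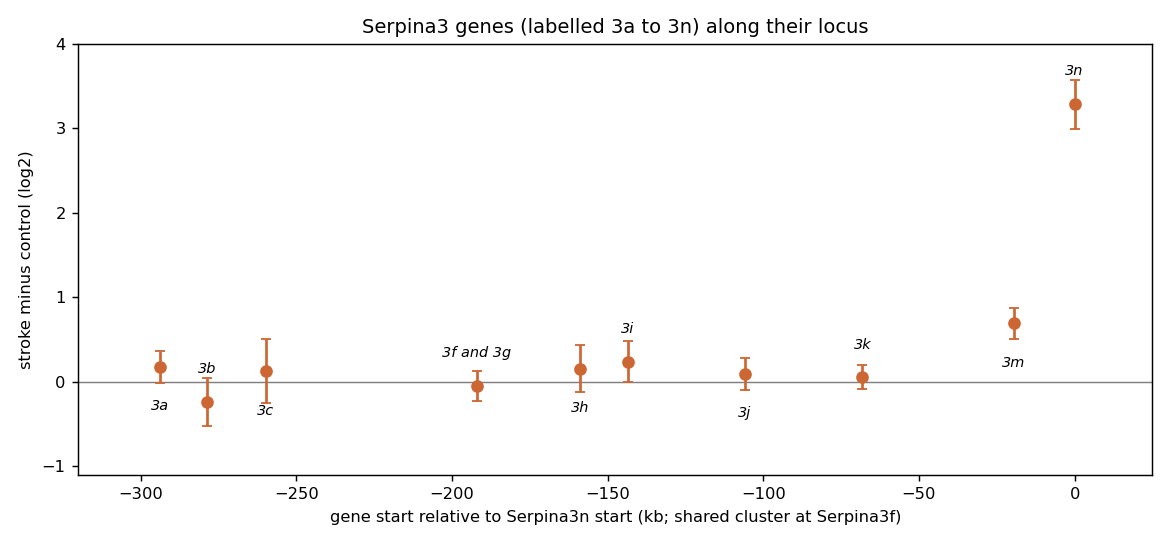
Difference in log2 signal (stroke minus control, points, with SE bars from the limma fit, n = 3 arrays per group) for the Serpina3 genes against the distance of each gene start from that of Serpina3n in kb. Serpina3n stands at 3.29, Serpina3m at 0.69, and the other 8 clusters lie between -0.24 and 0.24.

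Promoter windows of the Serpina3 genes show how alike some of these neighbours are and how others differ. RefSeq windows (GRCm38.p6), which run from 250 bases before to 50 after a start in RefSeq's table, were held for 6 of the 9 members. For Serpina3n, Serpina3b, Serpina3c, Serpina3i, Serpina3j and the second of 2 Serpina3f windows, that start lies inside the gene and not at its first base. The Serpina3n window (chr12:104406458-104406757, plus strand) was 92.6% identical over 297 aligned columns to that of Serpina3c (chr12:104153823-104154122, minus strand). Both are printed below 5′ to 3′, with bases that differ or have no partner in the alignment in capitals.
Serpina3n: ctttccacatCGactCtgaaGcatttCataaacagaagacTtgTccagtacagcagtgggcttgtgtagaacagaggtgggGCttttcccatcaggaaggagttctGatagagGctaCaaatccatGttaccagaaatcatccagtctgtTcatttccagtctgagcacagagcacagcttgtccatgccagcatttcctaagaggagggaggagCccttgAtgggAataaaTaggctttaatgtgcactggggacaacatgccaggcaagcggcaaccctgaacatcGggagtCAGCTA
Serpina3c: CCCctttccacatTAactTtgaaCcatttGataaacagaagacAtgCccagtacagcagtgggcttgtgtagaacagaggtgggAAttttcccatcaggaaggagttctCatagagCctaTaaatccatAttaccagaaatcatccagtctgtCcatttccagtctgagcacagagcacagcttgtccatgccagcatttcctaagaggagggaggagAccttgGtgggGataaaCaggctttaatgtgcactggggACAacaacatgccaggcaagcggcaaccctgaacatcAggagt
Serpina3c was at 3.76, 4.0 and 3.01 in control and at 3.32, 3.28 and 4.54 in stroke. Its groups overlapped and its difference was 0.13 (SE 0.38), against 3.29 for Serpina3n. All 6 Serpina3c values lay below the median of their array, so its signal is not shown to be above background. A link between window and signal was not tested. The windows of Serpina3b, Serpina3i, Serpina3g and Serpina3f were 69.9%, 67.2%, 65.5% and 63.4% identical to that of Serpina3n over their aligned parts (64.8% for a second window of Serpina3f). Those of Serpina3a and Serpina3j were less alike, at 46.4% and 46.8%. The Serpina3j window starts at chr12:104314320, well inside a gene that spans chr12:104300722-104320586.

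The windows were searched on both strands for 4 letter patterns. These were TTCNNNGAA, the core bound by STAT factors, GAANNTTC, a pair of heat shock element units, TGANTCA, the AP-1 site, and the kappaB consensus. Over all 32851 windows of the same length, 8.30%, 7.86%, 7.81% and 8.46% held them. The STAT letters were found in the windows of Serpina3f, Serpina3g and Serpina3i, and the kappaB letters in those of Serpina3g, Serpina3i and Serpinh1, and no match overlapped another. Serpina3n and Serpine2 held none of the 4. The stretches that align with the STAT letters of Serpina3i show where Serpina3n departs from them, with the aligned letters in capitals.
Serpina3i (chr12:104263010-104263038): taagtgcttgTTCCCAGAAatcacccagt
Serpina3g (chr12:104236104-104236132): taagttatagTTCCCAGAAatcacccggt
Serpina3f (chr12:104214413-104214441): tcagttctatTTCCTAGAAatcacccatt
Serpina3n (chr12:104406575-104406603): caaatccatgTTACCAGAAatcatccagt
Serpina3c (chr12:104153974-104154002, minus strand): taaatccataTTACCAGAAatcatccagt
Counted from 1 at the first capital and with the base of Serpina3i first, Serpina3n and Serpina3c both carry C3A, and Serpina3f carries C5T. A match or its absence in 300 bases describes these letters only.

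A2m (chr6:121636165-121679238) encodes alpha-2-macroglobulin, the broad protease trap. Its log2 signal was 5.10, 5.55 and 4.97 in control and 6.91, 7.08 and 7.42 in stroke. The groups were separate by 1.36. The means were 5.21 ± 0.30 and 7.14 ± 0.26, a difference of 1.93 (SE 0.20), or 3.81-fold. Differences from the array of the same number were 1.81, 1.53 and 2.45, which spread more widely than those of Serpina3n (SD 0.47 against 0.11). Only the control level lay near the array medians, with 2 of the 6 values below the median of their array.

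Serping1 (chr2:84765360-84775444) encodes the C1 inhibitor, which also blocks plasma kallikrein and factor XII. It was at 6.78, 6.88 and 6.61 in control and 7.58, 7.70 and 7.74 in stroke. The stroke arrays all lay above the control arrays, and the spread within each group was small. The means were 6.76 ± 0.14 and 7.67 ± 0.08, a difference of 0.91 (SE 0.14), or 1.89-fold. Serpinh1 (chr7:99345375-99353239), the collagen chaperone, was at 6.61, 6.24 and 6.54 in control and 7.31, 7.41 and 7.59 in stroke. These groups were also separate, with means of 6.46 ± 0.19 and 7.44 ± 0.14 and a difference of 0.97 (SE 0.15), or 1.96-fold. Serping1 and Serpinh1 thus differed by similar amounts, both less than A2m and Serpina3n.

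Serpine2 (chr1:79794317-79858665) encodes protease nexin-1, which blocks thrombin, urokinase and plasmin at cell surfaces. It was at 8.81, 8.76 and 9.22 in control and 8.90, 9.07 and 8.89 in stroke. Every array was above the array medians, the groups overlapped, and the difference was 0.02 (SE 0.16). It was -0.12 without both arrays numbered 2. The main difference was smaller than the SD of the control arrays (0.25).

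In 5 of the 8 clusters all 3 stroke values lay above all 3 control values, against 6.15% of the 31873 clusters with a symbol, and in 0 of the 8 they lay below, against 4.92%. In limma's fit of all these clusters, 3 of the 8 (Serpina3n, A2m and Serping1) were past a Benjamini-Hochberg adjusted p of 0.05 with higher signal, against 0.355% of all clusters, and 0 with lower signal, against 0.00314%. With the replicate number as a block, 2 were (Serpina3n and A2m), against 0.467%. The choice of the members fixed these counts, and nothing is read from them. Without both arrays numbered 2 the differences were 2.13 for A2m, 0.96 for Serping1, 0.87 for Serpinh1, 0.76 for Serpina3m and 0.27 for Serpina3i. The median difference over the 8 clusters was 0.80, beside -0.01 over all clusters.

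By profile over the 6 arrays, with each gene centred on its own mean, Hmox1, the heme-degrading heme oxygenase, lay nearest to Serpina3n at a root mean square distance of 0.18 on the log2 scale. Its signal was 5.54, 6.25 and 5.54 in control and 9.07 and 9.05 in stroke arrays 1 and 3, and array 2 was again the highest on both sides. Next came the chemokines Ccl12 (0.27) and Ccl9 (0.33), the membrane protein gene Ms4a6d (0.34) and the metalloproteinase inhibitor gene Timp1 (0.42). Nearest to Serping1 were Fblim1 (0.06), an actin-linked adaptor at filamin contacts, Tmem123 (0.07), and Nupr1 (0.08), a stress-induced chromatin protein. This distance weighs the size of a gene's difference between groups as well as its course over the arrays.

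Inhibitors outside the 9 members were taken from the fit of all clusters, of which 0.355% rose and 0.00314% fell. The lists were chosen with earlier results known, so their share is a description only. Among 106 reported clusters of other serpins, alpha-2-macroglobulin relatives, cystatins, Kunitz, Kazal and WAP inhibitors and tissue inhibitors of metalloproteinases, 3 rose, 0 fell and 103 did not pass (limma, adjusted p over all clusters, 12 higher and 3 lower at an unadjusted p under 0.05). The 3 were Timp1, Tfpi2 and C4b. Without both arrays numbered 2 only Timp1 of these passed, with adjusted p = 0.123 for Tfpi2 and 0.122 for C4b. The median difference over the 106 clusters was 0.05, beside -0.01 for all clusters.

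Over all clusters 0.358% passed in either direction, so 0 calls in a short list is near that share. No lack of change is read from such a 0, here or in the lists below. None of the 52 other serpin clusters reported here passed in either direction (limma, 3 higher and 2 lower at an unadjusted p under 0.05). This held for the 19 other clade A serpins (limma, 1 higher and 0 lower at an unadjusted p under 0.05), with Serpina3k at 5.03 ± 0.13 and 5.09 ± 0.14 and Serpina9 at 5.50 ± 0.12 and 5.23 ± 0.13. Likewise 0 of 26 clade B serpins, the intracellular branch, passed (limma, 1 higher and 2 lower at an unadjusted p under 0.05). Their 2 brightest clusters were Serpinb6a, with a difference of -0.04, and Serpinb8, with 0.08. Of these clade A and clade B clusters, 17 of 19 and 19 of 26 lay below the array median on all 6 arrays. Of the 7 reported serpins of clades C to I, 0 passed (limma, 1 higher and 0 lower at an unadjusted p under 0.05). Serpini1, which encodes neuroserpin, was at 9.88 ± 0.15 in control and 9.85 ± 0.09 in stroke, and Serpinf1, which encodes pigment epithelium-derived factor, was at 6.33 ± 0.02 and 6.52 ± 0.32.

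In the alpha-2-macroglobulin family, complement component C4b, which shares the thioester fold of A2m, was the 1 of 7 that rose. C4b was at 5.81, 6.14 and 6.21 in control and 7.10, 7.06 and 7.12 in stroke, a difference of 1.04 (SE 0.15), or 2.05-fold (limma, adjusted p = 0.0417). It was past the threshold in no fit that left out 1 array, where its adjusted p lay between 0.0792 and 0.20. The plasma macroglobulin genes Pzp and Mug1, closest to A2m in function, were at 4.02 and 3.76 in control and 3.90 and 3.86 in stroke. Among the 4 metalloproteinase inhibitors Timp1 rose 9.15-fold, from 4.95 ± 0.05 to 8.15 ± 0.30 (limma, adjusted p = 0.000805), and Timp2, Timp3 and Timp4 did not pass. All 3 control values of Timp1 lay below the array medians, and without detection calls the size of this fold is uncertain.

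Of 24 Kunitz, Kazal and WAP inhibitors, Tfpi2, a Kunitz inhibitor of plasmin and trypsin in the extracellular matrix, rose and 23 did not pass. On all 6 arrays, 10 of the 24 lay below the array median. Tfpi2 was at 4.51, 4.27 and 4.85 in control and 5.67, 5.76 and 5.79 in stroke, 2.29-fold higher (limma, adjusted p = 0.0417), with all 3 control values below the array medians as for Timp1. Its adjusted p without single arrays lay between 0.0505 and 0.212. Of 19 cystatins and stefins, inhibitors of cysteine proteases, 0 passed (limma, 3 higher and 0 lower at an unadjusted p under 0.05), and 15 of the 19 lay below the array median on all 6 arrays. Cst3 (cystatin C) was at 10.96 ± 0.30 and 10.95 ± 0.27 and Cstb (cystatin B) at 8.93 ± 0.58 and 9.27 ± 0.43. With the replicate block the stefin gene Stfa2l1 passed (adjusted p = 0.0227, against 0.0567 without it), at 2.62 ± 0.31 in control and 3.86 ± 0.21 in stroke, both below the array medians.

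**Figure D3:**
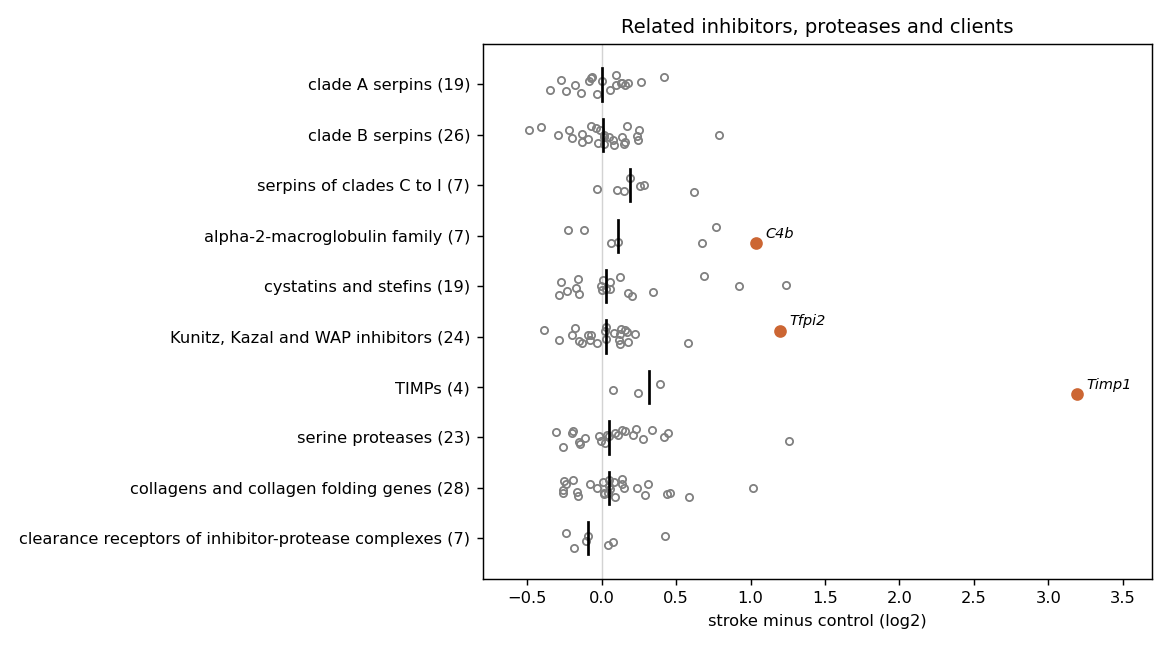
Difference in log2 signal (stroke minus control) of related genes by list, with the number of clusters in brackets, filled orange points for genes past an adjusted p of 0.05 (limma, n = 3 arrays per group), open points for the others and a black line at each list's median. Timp1, Tfpi2 and C4b are the filled points, and the medians lie between -0.09 and 0.32.

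Proteases, clients and clearance receptors of these proteins were read from the same fit. Of 23 serine proteases of granules, coagulation and complement, 0 passed (limma, 3 higher and 0 lower at an unadjusted p under 0.05), with a median of 0.05. On all 6 arrays, 14 of the 23 lay below the array median. The brightest were tissue plasminogen activator (Plat), at 7.75 ± 0.18 and 8.17 ± 0.30, and Htra1, at 7.57 ± 0.23 and 8.02 ± 0.18. Granzyme B (Gzmb) was at 3.33 and 3.22 and the complement protease gene C1s1 at 2.72 and 2.76, levels below the array medians. With the replicate block the kallikrein gene Klk6 passed (adjusted p = 0.0239, against 0.0935 without it), at 6.44 ± 0.30 in control and 7.70 ± 0.36 in stroke. Gzmb, C1s1, Klk6, Stfa2l1, Pzp and Mug1 were named after their values were seen.

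Collagens and collagen folding genes, the clients and partners of Serpinh1, did not pass in any of 28 clusters (limma, 3 higher and 0 lower at an unadjusted p under 0.05; median 0.05). The brightest, Hsp90b1 and Pdia3, both chaperones of the endoplasmic reticulum, differed by 0.04 and 0.09. Nor did any of 7 receptors that clear inhibitor and protease complexes (limma, 1 higher and 0 lower at an unadjusted p under 0.05; median -0.09). Lrp1, the receptor for A2m complexes, was at 9.46 ± 0.29 in control and 9.37 ± 0.23 in stroke, and the sorting receptor gene Sorl1 differed by -0.11 (SE 0.17).

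Several marker lists moved with the higher inhibitor signal. Of 17 reactive astrocyte markers, 10 rose and 0 fell (limma), and the mean over the list was 5.98 to 6.03 in the control arrays and 7.53 to 7.60 in the stroke arrays. Timp1 is one of them, and the list leaves out Serpina3n. Of 13 general astrocyte markers 1 rose, and their mean was 8.76 to 9.05 in control and 9.18 to 9.34 in stroke. The riser was Gfap, whose cluster is shared with Gm39395 and was 3.54-fold higher. Gfap is also 1 of the 10 reactive astrocyte markers that rose, so it is counted in both lists. The list mean includes Gfap, and the median difference over the 13 was 0.29. The mean over 12 monocyte markers was 5.08 to 5.13 and 5.33 to 5.54, and 1 of them (Cd44) rose. Cd44 is also 1 of the 10 reactive astrocyte markers that rose, and 6 of the 12 monocyte markers lay below the array median on all arrays. The mean over 14 neutrophil markers was 4.45 to 4.66 and 4.86 to 4.88, with 0 past the threshold (limma, 4 higher and 0 lower at an unadjusted p under 0.05) and 3 with the replicate block. Stfa2l1, counted above among the stefins, is 1 of these 3. Differences over the 14 ran from -0.26 to 1.24, with a median of 0.22, and 10 of the 14 lay below the array median on all 6 arrays. Homeostatic microglia markers were at 6.81 to 7.18 and 7.37 to 7.60, with 0 of 17 past the threshold (limma, 7 higher and 1 lower at an unadjusted p under 0.05) and 2 with the block. The microglia list did not move as one, since its differences ran from -0.40 (P2ry12) to 1.26 (C1qb), with a median of 0.38. The part of any of these cells in the higher signal of Serpina3n, A2m, Serping1 and Serpinh1 was not tested.

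Lists of other cell types that express some of these genes did not separate in the same way. Hepatocytes are the main source of clade A serpins in plasma. The mean over 10 hepatocyte markers was 5.14 to 5.39 in control and 5.10 to 5.35 in stroke, with 0 past the threshold (limma, 0 at an unadjusted p under 0.05). Of these 10, 7 lay below the array median on all 6 arrays, so the list says little about a change. Oligodendrocyte, endothelial, and mural and fibroblast lists overlapped between groups, as did the neuron list, and 0 of their 43 members passed (limma, 4 higher and 1 lower at an unadjusted p under 0.05).

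**Figure D4:**
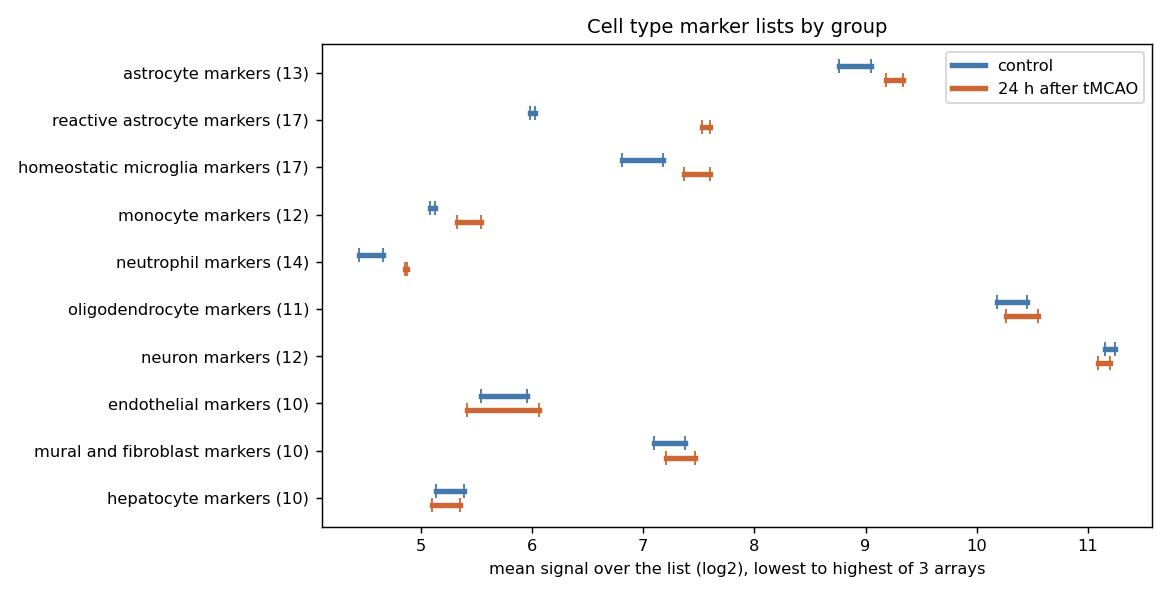
Mean log2 signal over each cell type marker list, with the number of clusters in brackets, as bars from the lowest to the highest of the 3 arrays of a group, control in blue and stroke in orange. The bars of the astrocyte, reactive astrocyte, microglia, monocyte and neutrophil lists are separate between groups, and those of the other 5 lists overlap. Gfap is in both astrocyte lists.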

How the data were processed

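Per the series' design text, the authors processed the arrays in Transcriptome Analysis Console 3.0, and per the file headers the annotation was na36 on mm10. How signal was summarised and normalized is not given in the sources used. The deposited value table holds log2 signal per transcript cluster, already summarised and scaled by the authors. Per the file headers, a second deposited table holds group averages in log2 units, a fold change (a score written as minus the inverse where stroke is lower) and p-values with a false discovery rate adjustment. It served for gene symbols and for 1 quoted fold. Members were found by symbol. The members and the lists were chosen with earlier results of these data known. An item of the gene lists is not reported here, and the list counts leave it out.

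All 31873 clusters with a symbol, including 1902 with several, were fitted with limma 3.58.1 in R 4.3.3 (lmFit, eBayes, Benjamini-Hochberg, threshold 0.05), with no filter on dim clusters. For a gene with several clusters, the brightest with 1 symbol was used. Named in the text were all members, up to 4 genes past the threshold per related list or else its 2 brightest, the 5 profiles nearest to Serpina3n and the 3 nearest to Serping1, and Itgam and Rpl10a. Deviations of same-numbered arrays from their group means correlated across clusters at r = 0.302, 0.588 and 0.419. For unlike numbers r was 0.236 (control 3, stroke 1), 0.115 (control 1, stroke 3) and negative where only 1 array was numbered 2. The numbers were therefore taken to pair the arrays in the block fit, though arrays 1 and 3 were less clearly told apart. The main fit used no pairing. This pairing was read from these same data, and the labels name no shared litter or day. The fit was tested on simulated data with 31873 clusters and recovered 45% of 100 2-fold and 94% of 100 4-fold changes. The simulated noise was independent between clusters and arrays, without the component that sets the arrays numbered 2 apart. These shares may therefore not hold for the real arrays. Promoters were aligned with Biopython 1.88 (match 2, mismatch -1, gap -5 and -0.5, free end gaps). Gene positions are from RefSeq (GRCm38.p6). Precision is limited by having 3 arrays per group.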

Additional observations from a re-analysis of the deposited data

How the results depend on the processing

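Under the 16 alternatives, the difference of each member cluster moved by less than its SD between replicates wherever the cluster was fitted. Most of this was fixed by the design of the alternatives. The replicate block, both filters, the trend and robust eBayes, 1 cluster per gene and the fit of all clusters cannot change a difference. Leaving out 1 of 3 arrays can move it by only part of that SD. The filter at the 25th percentile of signal removed Serpina3i, and the filter at the median also Serpina3m, Serpina3f and Serpina3g. Fitting 1 cluster per gene removed the last pair. Leaving out 1 array at a time gave differences of 3.05 to 3.58 for Serpina3n, 1.79 to 2.10 for A2m, 0.84 to 0.98 for Serping1 and 0.86 to 1.04 for Serpinh1. In these fits 1 to 2 members were called (1 without control replicate 1, control replicate 3 or stroke replicate 3), 25 to 57 of all clusters were higher and 0 lower (limma, 370 to 889 lower at an unadjusted p under 0.05), and 1 to 2 of the 164 related clusters were higher, against 3 with all arrays. Over all clusters with a symbol, 113 were higher and 1 lower. Array weights gave 204 higher and 3 lower, and the replicate block 149 higher and 2 lower, and each gave 5 related genes higher. Fitting all 41345 clusters of the value table gave 36 higher, 0 lower (921 at an unadjusted p under 0.05) and 1 related gene. Without both arrays numbered 2 there were 65 higher, 0 lower (1040 at an unadjusted p under 0.05) and 1 related gene. Where arrays were left out, fewer arrays entered the fit, and the cause of the other shifts was not tested. Timp1 was past the threshold under all 16 alternatives, and C4b and Tfpi2 were not. The block changed no call of a related gene other than those given above.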
